A study of Mus musculus with 2 samples.

Results

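The cells described here are mouse embryonic stem cells that held the most RNA of 6 genes tied to low oxygen and sugar breakdown. For each cell the UMIs (unique molecular identifiers, each marking 1 captured molecule) of Ndufa4l2, Bnip3, Egln1, Egln3, Pfkp and Aldoc were summed and divided by the UMIs of the whole cell. The score is that sum per 10000 UMIs, and the top 10% of the cells of both libraries together were chosen. They number 771 of 7709 cells, 589 of 4978 in the control library and 182 of 2731 in the library labelled sonKD, and are called high-scoring cells below. The remaining 6938 cells, 4389 in control and 2549 in sonKD, are called the other cells. Since the RNA counts themselves chose the cells, the levels of the 6 genes in them are a description, and no test was made of any difference.

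All cells were of the E14 line, an embryonic stem cell line of 129/Ola background, kept in serum with leukaemia inhibitory factor, which holds such cells in self-renewal. They received either control siRNA (a small interfering RNA) or siRNA against Son, which encodes an RNA-binding protein of nuclear speckles, by Lipofectamine 2000. Both groups were collected 24 h later, frozen, thawed, sorted for exclusion of the dye 7-AAD and barcoded with 10x Chromium Single Cell 3' v3 chemistry. Each group held 1 library, so a library and a treatment cannot be told apart, no difference has a replicate check, and the 95% intervals in parentheses cover counting error only. The labels name no oxygen tension, so low oxygen stands here only for the known roles of the genes.

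Cells sense oxygen through hypoxia-inducible factors (HIFs), transcription factors whose alpha subunits are made and destroyed all the time. In the presence of oxygen, prolyl hydroxylases of the Egln family mark the alpha subunit, and the Vhl complex then tags it for degradation. When oxygen is short the subunit is spared, pairs with Arnt and switches on genes for glucose uptake, glycolysis, lactate export and vessel growth. Mouse embryonic stem cells in serum draw on both glycolysis and respiration, and HIF activity is known to shift that balance towards glycolysis.

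The high-scoring cells were about as deep as the others. Their median was 7633 UMIs against 7746 in the other cells of control, and 11324.5 against 11620 in sonKD. Mitochondrial transcripts took a median of 3.63% of their UMIs against 3.66% in control, and 3.73% against 4.13% in sonKD. With the cells of a library split by depth into 5 groups of equal size, they made up between 9.96% and 14.7% of control cells and between 4.57% and 8.99% of sonKD cells, without a steady trend from shallow to deep. No barcode was shared between the high-scoring cells of both libraries, and 2 were shared among all cells used. The sequenced totals were 71046373 UMIs in control and 60352438 in sonKD, of which the cells used held 40902904 and 32032551.

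The score had no gap at the point where the cells were cut. The lowest high-scoring cell had 5.77367 UMIs of the 6 genes per 10000, and the next cell outside had 5.77284. Within 10% of the cut lay 133 high-scoring cells above it and 166 other cells below it, so the class is the upper end of a range. The median score of the high-scoring cells was 7.75 in control and 7.66 in sonKD, against 1.41 in the other control cells, and the upper quartile of the other sonKD cells was 2.34. These are small numbers of molecules, with a median of 7 UMIs and a minimum of 2 per high-scoring cell. No UMI of the 6 genes was found in 2072 cells, or 26.9% of all.

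**Figure D1:**
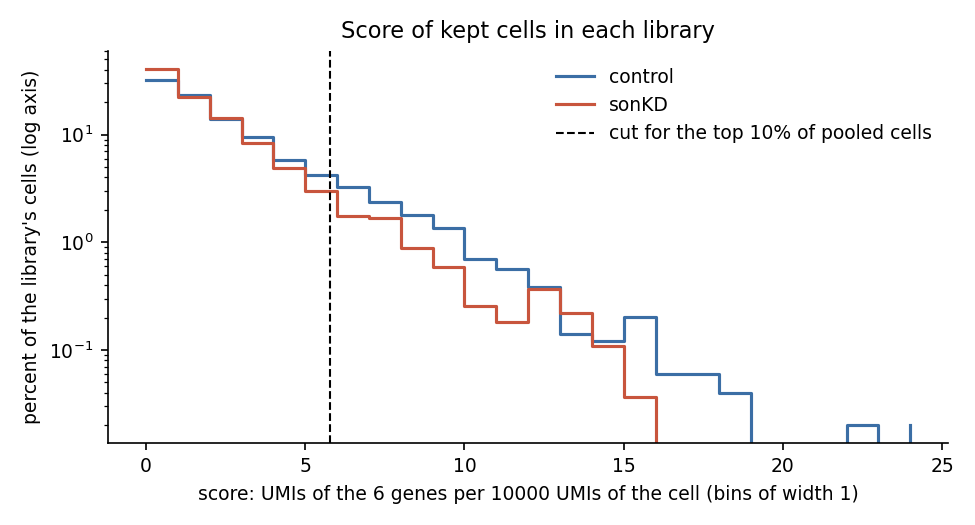
The plot shows the share of each library's cells (log axis, in percent) in bins of the score (UMIs of the 6 genes per 10000 UMIs of the cell), with control in blue, sonKD in red and the cut for the top 10% of pooled cells as a dashed line. Both curves run down smoothly through the cut at 5.77, and the control curve lies above the sonKD curve in most bins to its right.

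The control library held a larger share of high-scoring cells. Their share was 11.8% (10.9 to 12.8) in control and 6.66% (5.76 to 7.67) in sonKD. The share in sonKD minus that in control was -5.17 percentage points (-6.47 to -3.83). The libraries also differed in depth, with a median of 7737.5 UMIs per cell in control and 11612 in sonKD. With 1 library per group, depth and treatment cannot be told apart. With every cell thinned to 2500 UMIs before scoring, ties at the cut made the class 1017 cells, 14.2% of control and 11.4% of sonKD, and the difference was -2.79 points (-4.33 to -1.22). That class shared 493 cells with the one used here, 63.9% of the high-scoring cells and 48.5% of the thinned class. Summed over all cells used, where deeper cells weigh more, the 6 genes together had 255 CPM (counts per 1e6 UMIs, 250 to 260) in control. In sonKD they had 206 CPM (201 to 211). The hypoxia response list described below did not share that order, with 3789 CPM in control against 3878 CPM in sonKD.

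The 6 genes that chose the cells cover the oxygen sensor, the mitochondrion and the glycolytic chain. Egln1 (ENSMUSG00000031987, chromosome 8 from 124908587 to 124949324) and Egln3 (ENSMUSG00000035105, chromosome 12 from 54178981 to 54203860) encode the prolyl hydroxylases that mark HIF alpha, and both are themselves known HIF targets. Egln1 stood at 131 CPM in the high-scoring cells and 27.6 CPM in the other cells of control, and at 128 and 27.1 CPM in sonKD. Egln3 stood at 67.0 against 11.6 CPM in control and at 73.9 against 9.04 CPM in sonKD. The high-scoring level was thus far above the other cells for both enzymes in both libraries, by construction.

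Bnip3 (ENSMUSG00000078566, chromosome 7 from 138890836 to 138909519) encodes a mitochondrial outer-membrane protein that recruits the autophagy machinery, and Ndufa4l2 (ENSMUSG00000040280, chromosome 10 from 127514967 to 127517154) a small mitochondrial protein known to restrain respiration in low oxygen. Bnip3 stood at 127 against 15.8 CPM in control and 171 against 19.0 CPM in sonKD. Ndufa4l2 stood at 88.1 against 10.6 CPM in control and 89.8 against 9.68 CPM in sonKD. In the other cells Ndufa4l2 was below its level in near-empty droplets of 100 to 500 UMIs, which was 17.6 CPM for control and 15.7 CPM for sonKD. Bnip3 in the other cells was likewise near its level in those droplets, 18.9 CPM for control and 17.8 CPM for sonKD. For the few UMIs of both genes in the other cells, expression and free RNA could thus not be told apart.

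Pfkp (ENSMUSG00000021196, chromosome 13 from 6579768 to 6648777) encodes the platelet form of phosphofructokinase, which commits glucose to glycolysis, and Aldoc (ENSMUSG00000017390, chromosome 11 from 78322968 to 78327781) the aldolase that splits its product. Pfkp stood at 371 against 97.6 CPM in control and 310 against 86.8 CPM in sonKD, and it gave 44.6% and 37.7% of the 6 genes' UMIs in the high-scoring cells. Aldoc stood at 46.8 against 15.6 CPM in control and 47.8 against 11.5 CPM in sonKD. A Pfkp UMI was seen in 92.7% of high-scoring control cells and 50.2% of the other control cells, whereas an Aldoc UMI was seen in 29.7% and 11.7%. At an equal depth of 2500 UMIs these control shares were 58.2% and 20.1% for Pfkp, and 11.7% and 3.62% for Aldoc. No cell type known to lack these genes was at hand. Near-empty droplets held Pfkp at 52.2 CPM and Aldoc at 14.5 CPM in control.

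The median high-scoring cell held UMIs of 3 of the 6 genes in control and of 4 in sonKD. At least 4 of the 6 were detected in 45.5% of high-scoring control cells and 71.4% of high-scoring sonKD cells, which were deeper, against 2.05% and 4.35% of the other cells. To see each gene apart from its own part in the score, cells were chosen again by the other 5 genes. Bnip3 was then 4.38-fold higher in the chosen cells than in the rest in control and 5.72-fold higher in sonKD. Ndufa4l2 was 4.46-fold and 5.94-fold higher, and Egln3 3.45-fold and 5.15-fold. Egln1 was 2.88-fold and 3.37-fold higher and Pfkp 2.09-fold and 2.32-fold. Aldoc was 1.69-fold higher in control and 3.09-fold in sonKD, so the lowest fold was that of Aldoc in control and that of Pfkp in sonKD. The cells chosen by 5 genes were for the most part high-scoring cells too, 71.2% of them without Pfkp and 90.9% without Aldoc, so these folds are a description as well. Between single cells at equal depth, the Pearson correlations of the 15 gene pairs ran from 0.016 to 0.115 in control and from -0.016 to 0.111 in sonKD, which at so few UMIs per cell is only a description.

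**Figure D2:**
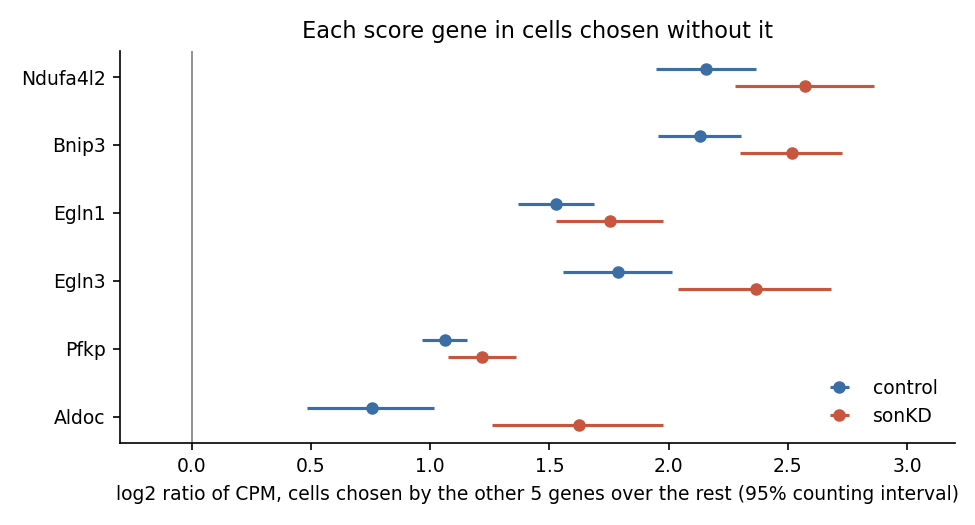
Each point is the log2 ratio of CPM of 1 of the 6 genes between cells chosen by the other 5 genes and the rest of the same library, with its 95% counting interval as a bar (control blue, sonKD red). The points run from Aldoc in control, at 0.75, to Ndufa4l2 in sonKD, at 2.57, and since most of the chosen cells are high-scoring cells they are a description.

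The promoters of these genes are shown because HIF binds DNA at a short core, ACGTG or GCGTG, which can be looked for directly. The RefSeq promoter table of GRCm38.p6 held 5 of the 6 genes and not Ndufa4l2. It covers 250 bases before to 50 after each annotated start, in the reference strain and not in 129/Ola. Letters in capitals are the core on either strand, where CACGT and CACGC are the reverse complements and neighbouring matches can overlap, as in CACGTG. Pgm1, Pgk1 and Vegfa are added as genes outside the score that are described below.
Bnip3, chr7:138909457-138909756, minus strand: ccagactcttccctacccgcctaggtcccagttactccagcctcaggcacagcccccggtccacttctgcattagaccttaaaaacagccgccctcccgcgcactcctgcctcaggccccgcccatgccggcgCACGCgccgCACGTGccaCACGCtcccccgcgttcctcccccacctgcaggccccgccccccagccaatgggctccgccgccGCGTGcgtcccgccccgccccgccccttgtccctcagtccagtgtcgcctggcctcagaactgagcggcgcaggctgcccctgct
Egln1, chr8:124949205-124949504, minus strand: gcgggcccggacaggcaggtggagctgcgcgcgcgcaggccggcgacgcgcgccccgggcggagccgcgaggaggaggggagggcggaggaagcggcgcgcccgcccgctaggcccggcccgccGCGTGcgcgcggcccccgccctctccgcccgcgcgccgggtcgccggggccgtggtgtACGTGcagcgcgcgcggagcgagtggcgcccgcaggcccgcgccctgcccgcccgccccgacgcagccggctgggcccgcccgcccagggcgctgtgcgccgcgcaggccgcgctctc
Egln3, chr12:54203825-54204124, minus strand: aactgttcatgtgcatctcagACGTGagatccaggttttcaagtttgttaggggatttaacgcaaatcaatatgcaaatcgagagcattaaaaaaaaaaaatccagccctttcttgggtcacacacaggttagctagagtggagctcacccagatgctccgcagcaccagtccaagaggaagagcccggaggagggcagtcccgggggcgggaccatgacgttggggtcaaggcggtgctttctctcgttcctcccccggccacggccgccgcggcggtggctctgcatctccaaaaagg
Pfkp, chr13:6648722-6649021, minus strand: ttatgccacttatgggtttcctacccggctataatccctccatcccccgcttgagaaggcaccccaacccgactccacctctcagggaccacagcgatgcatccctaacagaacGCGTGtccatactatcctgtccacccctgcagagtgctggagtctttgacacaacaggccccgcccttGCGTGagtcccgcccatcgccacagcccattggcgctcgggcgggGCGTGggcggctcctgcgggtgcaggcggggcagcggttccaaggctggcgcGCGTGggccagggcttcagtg
Aldoc, chr11:78322823-78323122, plus strand: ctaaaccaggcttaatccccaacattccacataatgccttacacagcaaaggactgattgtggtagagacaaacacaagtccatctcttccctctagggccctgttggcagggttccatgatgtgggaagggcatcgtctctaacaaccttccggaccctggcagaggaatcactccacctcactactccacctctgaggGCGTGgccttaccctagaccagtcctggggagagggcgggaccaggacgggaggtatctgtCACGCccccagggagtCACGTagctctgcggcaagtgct
Pgm1, chr4:99929201-99929500, plus strand: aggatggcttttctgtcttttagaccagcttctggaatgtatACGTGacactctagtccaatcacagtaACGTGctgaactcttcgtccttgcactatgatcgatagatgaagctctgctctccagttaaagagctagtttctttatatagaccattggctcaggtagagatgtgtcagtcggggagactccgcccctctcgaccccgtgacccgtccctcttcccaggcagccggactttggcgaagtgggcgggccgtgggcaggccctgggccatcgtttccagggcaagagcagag
Pgk1, chrX:106186850-106187149, plus strand: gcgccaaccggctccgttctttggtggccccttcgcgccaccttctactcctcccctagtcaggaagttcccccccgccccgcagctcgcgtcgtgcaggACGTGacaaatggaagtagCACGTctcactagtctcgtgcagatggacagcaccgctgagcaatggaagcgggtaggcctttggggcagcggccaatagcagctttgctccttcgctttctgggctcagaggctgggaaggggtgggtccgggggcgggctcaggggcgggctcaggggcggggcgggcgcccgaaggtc
Vegfa, chr17:46032328-46032627, minus strand: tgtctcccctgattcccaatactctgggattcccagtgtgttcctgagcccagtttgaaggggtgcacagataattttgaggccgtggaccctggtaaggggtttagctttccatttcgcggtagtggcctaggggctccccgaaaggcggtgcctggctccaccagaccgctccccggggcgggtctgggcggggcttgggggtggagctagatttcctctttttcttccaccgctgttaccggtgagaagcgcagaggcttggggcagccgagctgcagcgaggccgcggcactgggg
All 5 score-gene windows held at least 1 core, with 5 in Bnip3, 4 in Pfkp, 3 in Aldoc, 2 in Egln1 and 1 in Egln3. Pgm1 and Pgk1 held 2 each, and these letters were not in the window of Vegfa. A match is common: 67.2% of the 6494 compared genes with a promoter in the table held 1 or more, as did 43.8% of all 27025 promoters in it. Among the 30 compared genes of the hypoxia response list with a promoter, 24 held a core, or 80.0%. The ACGTG form was in 63.3% of those 30 promoters, in 50.0% of the 18 of the glycolysis list, and in 27.9% of all compared promoters. Among the 286 promoters of genes higher in the high-scoring cells (defined next), the core was in 65.7% and ACGTG in 31.5%. Both shares were close to those of all compared genes.

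Every other gene was then read in the high-scoring cells against the other cells of its own library. Genes entered at a mean of at least 10 CPM over the 4 sums of cells, which left 8090 genes besides the 6, and a gene is called higher or lower where its log2 ratio was at least 0.32 above or below 0 in both libraries, a fold of 0.8 or less in the case of lower genes. By this rule 363 genes were higher, 4.49% of those compared, and 201 were lower, 2.48%. With cells scored at 2500 UMIs these numbers were 157 and 87. A list of genes can be read against these shares. Ratios were above 0 in both libraries for 34.3% of genes and below 0 in both for 33.6%. The middle gene did not move, with a median log2 ratio of 0.0016 in control and 0.0024 in sonKD, and the central 90% of genes ran from -0.33 to 0.39 and from -0.46 to 0.50. A single gene's counting interval had a median width of 0.45 in control and 0.70 in sonKD, so small differences of single genes were not resolved. Across genes, which do not count as independent replicates, the log2 ratios of both libraries had a Pearson's r of 0.60, and 29 genes passed the fold in opposite directions.

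Genes of the hypoxia response were higher as a group. Of the 40 compared of 60 listed, 26 were higher in both libraries and 0 lower, with a median log2 ratio of 0.60 in control and 0.85 in sonKD. Of these 40, 6 reached the level minimum only through the high-scoring cells and so had to be higher: Ndrg1, Ankrd37, Loxl2, P4ha2, Ak4 and Zfp395. Among the 34 at 10 CPM in the other cells, 20 were higher. The medians of 0.60 and 0.85 cover all 40 genes and so are raised by the 6. With cells scored at 2500 UMIs the medians of the list were 0.391 and 0.460, and at a minimum of 50 CPM that of sonKD was 0.437. Summed over the list, the high-scoring cells held 4882 CPM against 3644 CPM in control and 5509 against 3765 CPM in sonKD. The shift was seen across cells and not in a few: per 10000 UMIs, the median cell held 48.5 UMIs of the list (quartiles 41.1 and 56.5) against 35.7 (30.0 and 41.9) in control, and 55.2 (48.0 and 61.6) against 36.9 (31.6 and 42.9) in sonKD.

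**Figure D3:**
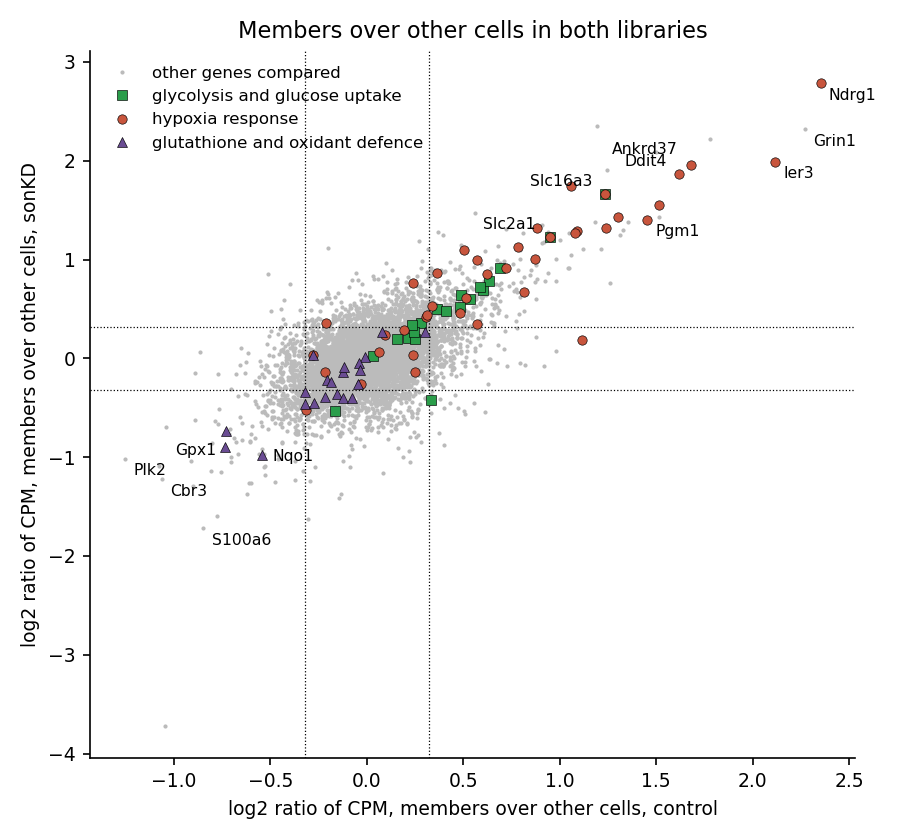
Each point is 1 of 8090 compared genes, at its log2 ratio of CPM in high-scoring over other cells in control (x axis) and in sonKD (y axis), with the hypoxia response list as red circles, the glycolysis list as green squares, the glutathione and oxidant list as purple triangles and dotted lines at 0.32 above and below 0. Of the 40 red points, 6 reached the level minimum only through the high-scoring cells, among them Ndrg1 at 2.35 and 2.79, and 20 of the other 34 lie past 0.32 on both axes, whereas 17 of 21 purple points are below 0 on both.

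Ndrg1, Ier3 and Ankrd37 were among the genes of that list with the highest ratios. Ndrg1, a stress-induced gene linked to growth arrest and differentiation, was at 18.4 CPM (14.7 to 22.6) in the high-scoring cells and 3.6 CPM (3.01 to 4.27) in the other cells of control, and at 20.3 (14.6 to 27.4) and 2.94 CPM (2.36 to 3.62) in sonKD. Its log2 ratio was 2.35 (1.95 to 2.75) in control and 2.79 (2.22 to 3.33) in sonKD. Ier3, an immediate early gene that bears on cell survival, was at 42.8 against 9.89 CPM in control and 46.8 against 11.8 CPM in sonKD, with log2 ratios of 2.11 and 1.99. Ankrd37, an ankyrin repeat protein gene known as a direct HIF target, had log2 ratios of 1.68 (1.39 to 1.96) and 1.96 (1.55 to 2.35). Ddit4, whose product restrains mTORC1, had 1.62 and 1.87, from 13.8 to 42.2 CPM in control and from 16.2 to 58.9 CPM in sonKD. Vegfa, the vessel growth factor, was at 29.7 against 14.3 CPM in control and 32.8 against 9.78 CPM in sonKD, with log2 ratios of 1.06 (0.78 to 1.33) and 1.75 (1.34 to 2.13). Loxl2, a lysyl oxidase that cross-links collagen, had 1.52 and 1.56, and 15.6% of its 3' end sequence occurs in other genes.

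Other members of the list were enzymes and regulators. P4ha1 and P4ha2, subunits of the collagen prolyl hydroxylase, had log2 ratios of 1.09 and 1.30 in control and of 1.29 and 1.43 in sonKD. Plod2, a lysyl hydroxylase, had 0.78 and 1.13. Ero1l, the oxidase that serves disulfide formation in the endoplasmic reticulum, had 1.08 and 1.27. Bhlhe40, a repressor with links to the circadian clock, had 1.24 and 1.32. The list was not uniform: Kdm3a, a histone demethylase widely used as a hypoxia marker, was at 79.4 against 66.8 CPM in control and at 50.7 against 55.7 CPM in sonKD. Its log2 ratios were 0.25 (0.09 to 0.41) and -0.14 (-0.44 to 0.15). Kdm4b was at 27.6 against 12.7 CPM in control but at 12.1 against 10.6 CPM in sonKD. Cited2, which competes with HIF for its coactivator, had values below 0 in both, -0.31 and -0.52. Car9, Adm and Epo, often used to mark hypoxia, did not reach the level minimum. Of the hypoxia response genes named, P4ha1, P4ha2, Plod2, Ero1l, Bhlhe40, Kdm3a, Kdm4b, Cited2, Car9, Adm, Epo, Ak4 and Zfp395 were chosen after their values were seen.

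Genes of glucose uptake, glycolysis and lactate export were higher too, with smaller ratios. Of the 20 compared of 24 listed, 11 were higher in both libraries and 0 lower, with medians of 0.39 in control and 0.49 in sonKD, and all 20 had 10 CPM in the other cells. With cells scored at 2500 UMIs the medians were 0.279 and 0.244, both under the limit of 0.32 used for single genes. Slc2a1 (Glut1), a glucose transporter, was at 375 against 194 CPM in control and 351 against 150 CPM in sonKD. Its log2 ratios were 0.95 (0.87 to 1.02) and 1.22 (1.11 to 1.34). Slc2a3 (Glut3) was at 442 against 343 CPM in control and 431 against 305 CPM in sonKD, with 0.36 and 0.50. The hexokinases Hk1 and Hk2, which trap glucose in the cell, had 0.69 and 0.60 in control and 0.92 and 0.69 in sonKD. At the far end of the pathway, Slc16a3, the lactate exporter known for its induction by HIF, was at 67.9 against 28.8 CPM in control and 77.3 against 24.4 CPM in sonKD. Slc16a1, the related carrier, was at 41.1 against 40.3 CPM and at 33.3 against 32.8 CPM.

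Within the chain the enzymes differed in size of ratio. Triose phosphate isomerase, Tpi1, was at 584 against 376 CPM in control and 678 against 395 CPM in sonKD, with log2 ratios of 0.63 and 0.78. Phosphoglycerate kinase, Pgk1, was at 835 against 557 CPM and at 855 against 517 CPM, with 0.58 and 0.73. Lactate dehydrogenase A, Ldha, which regenerates the cofactor that glycolysis uses up, was at 1183 against 848 CPM and at 1189 against 829 CPM, with 0.48 (0.44 to 0.52) and 0.52 (0.46 to 0.58). Pkm, Pgam1 and Aldoa were below the limit of 0.32 in at least 1 library, at 0.25, 0.21 and 0.28 in control and 0.27, 0.21 and 0.35 in sonKD. Gapdh, at 0.16 and 0.20, and Eno1, at 0.25 and 0.20, were also below it, but 81.0% and 70.1% of their 3' end sequence is shared with other annotated genes, so the rule for assigning reads to near copies bears on both. Eno3, the muscle enolase, had -0.16 and -0.53. Of the glycolysis genes named, Hk2, Slc16a1, Pkm, Pgam1 and Eno3 were chosen after their values were seen.

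Only single genes of pyruvate entry, the TCA cycle, glycogen and pentose phosphate metabolism were called. Over all compared genes 4.49% were higher and 2.48% lower, so calls this few are given for the genes and not for the pathways. Pdk1, the kinase that shuts off pyruvate dehydrogenase, was at 87.7 against 62.9 CPM in control and 88.4 against 64.5 CPM in sonKD, with log2 ratios of 0.48 (0.33 to 0.63) and 0.45 (0.23 to 0.67). Pdk3, a related kinase, had 0.37 and 0.48, but -0.00173 in sonKD where cells were chosen on one random part of their UMIs and measured on the remaining part. They were the only 2 of 27 compared genes of pyruvate entry and the TCA cycle that were higher, 0 were lower, and the medians were 0.00 and 0.05. Among 12 compared genes of glycogen and pentose phosphate metabolism, 2 were higher and 1 lower. The higher ones are Pgm1, which links glucose 6-phosphate to glycogen, and Gys1, the glycogen synthase. Pgm1 was at 70.2 against 25.6 CPM in control and 67.6 against 25.5 CPM in sonKD, with log2 ratios of 1.45 and 1.40. Gys1 had 0.57 and 0.99. The lower one is Rpe, of the pentose phosphate path, at -0.42 and -0.52.

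Single genes of the respiratory chain itself passed the fold, and they are given as genes and not as a result for the chain. Of 80 compared nuclear genes of oxidative phosphorylation, 2 were higher and 0 lower, with medians of -0.02 and -0.03. The shares over all compared genes were 4.49% higher and 2.48% lower. The higher ones were the complex I gene Ndufv3, at 0.46 and 0.50, and Cox7a1, at 0.37 and 0.67. In both libraries 41 of the 80 were below 0 and 22 above, against 33.6% and 34.3% of all compared genes. Of the 13 mitochondrially encoded genes, mt-Nd6 was higher, at 0.44 and 0.68. Of these 13, 9 were below 0 in both libraries, against 33.6% of all compared genes, among them mt-Nd1 at -0.30 and -0.43. Bnip3l, the relative of Bnip3 that also serves removal of mitochondria, was at 220 against 143 CPM in control and 273 against 151 CPM in sonKD. Its log2 ratios were 0.63 (0.53 to 0.72) and 0.85 (0.72 to 0.98). It was 1 of 14 compared genes of the mitophagy list to be higher. None was lower, and 8 of the 14 were below 0 in both, against 33.6% of all compared genes, including the receptor Sqstm1 at -0.30 and -0.45.

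Of the other transcripts of the oxygen sensor, Hif1a, Egln2 and Vhl were called neither higher nor lower. Hif1a was at 68.5 against 71.8 CPM in control and 56.0 against 58.7 CPM in sonKD, a log2 ratio of -0.07 (-0.24 to 0.10) and -0.07 (-0.35 to 0.20). Egln2, the third hydroxylase, had -0.01 (-0.25 to 0.21) and -0.37 (-0.79 to 0.03), and Vhl -0.17 (-0.61 to 0.25) and 0.02 (-0.71 to 0.68). Of 13 compared genes of HIF control, 0 were higher and 1 was lower, Hif1an, which encodes the asparaginyl hydroxylase that blocks HIF's coactivator. Over all compared genes 4.49% were higher and 2.48% lower, so these counts are given for the genes and not for the list. Hif1an was at 11.5 against 16.6 CPM in control and 6.76 against 13.2 CPM in sonKD. It averaged under 10 CPM in the high-scoring cells, reached the level minimum only through the other cells and so had to be lower. Gm15283, annotated as antisense to Hif1a, was among the 10 highest genes of all, at 29.9 against 10.6 CPM in control and 33.3 against 7.84 CPM in sonKD. Its log2 ratios were 1.5 (1.21 to 1.78) and 2.09 (1.68 to 2.48), and it reached the level minimum only through the high-scoring cells. The counting rules for strand are not given in the sources used here, and reads of Gm15283 and Hif1a could in that case not be told apart where they overlap.

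Beside the lists, the 10 highest genes held Grin1, A2m and Ltbp1. Grin1, the obligatory subunit of NMDA glutamate receptors, was at 27.4 CPM (22.9 to 32.5) against 5.68 CPM (4.93 to 6.51) in control and 28.5 (21.7 to 36.7) against 5.71 CPM (4.88 to 6.63) in sonKD. In near-empty droplets it was at 0.871 and 0.536 CPM, far below either class. Its log2 ratios of 2.27 and 2.32 stood beside those of Ndrg1. A2m, a secreted protease inhibitor, had 1.78 and 2.22, and Ltbp1, which anchors latent TGF-beta in the matrix, had 1.51 and 1.43. All 3 had under 10 CPM in the other cells and so reached the level minimum through the high-scoring cells.

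The high-scoring cells were lower in transcripts of glutathione and oxidant defence. Of 21 compared genes 4 were lower and 0 higher, 17 were below 0 in both libraries, and the medians were -0.15 and -0.26. Over all compared genes 2.48% were lower and 33.6% were below 0 in both libraries. Gpx1, the glutathione peroxidase that removes hydrogen peroxide, was at 217 against 361 CPM in control and 211 against 392 CPM in sonKD, with log2 ratios of -0.74 (-0.83 to -0.64) and -0.89 (-1.04 to -0.76). Gss, glutathione synthetase, was at 30.5 against 50.6 CPM and at 31.4 against 52.2 CPM. Nqo1, a quinone reductase and classical target of Nrf2, was at 32.8 against 47.8 CPM and at 29.9 against 59.0 CPM. The other lower gene was Gclc, of the first step of glutathione synthesis, at -0.32 and -0.47, and it was named after its values were seen. Cbr3, a carbonyl reductase outside the list, was among the 10 lowest genes, at 24.9 against 51.8 CPM in control and 36.7 against 85.6 CPM in sonKD. Near-empty droplets held Cbr3 at 58.7 and 113 CPM, above either class of cells. The same held for Gpx1, at 530 and 506 CPM, and for Nqo1, at 53.3 and 66.0 CPM. Gss, at 31.5 and 33.8 CPM there, lay between the classes. The part of free RNA in these lower values was likewise not tested.

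Several p53 targets and epithelial genes were lower as well. Of 26 compared p53 targets, 6 were lower and 1, Gdf15, was higher, with medians of -0.17 and -0.24. Among all compared genes 2.48% were lower and 4.49% higher. Gdf15 reached the level minimum only through the high-scoring cells, and 0 of the other targets were higher. Mdm2, which degrades p53, was at 93.8 against 147 CPM in control and 74.4 against 131 CPM in sonKD. Perp, a membrane protein of cell adhesion and death, had log2 ratios of -0.76 and -1.15, and Plk2, a polo-like kinase, -1.25 and -1.02. Plk2 was at 7.73 and 9.17 CPM in the high-scoring cells of control and sonKD. It reached the level minimum only through the other cells and so had to be lower. Cdkn1a, the cell cycle inhibitor that is the best known of these targets, had 0.19 (0.01 to 0.38) and 0.16 (-0.13 to 0.44). Of 12 compared epithelial and keratin genes, 5 were lower and 1, Anxa2, was higher. S100a6, a calcium-binding protein, was at 59.7 CPM (53 to 67.1) against 107 CPM (104 to 111) in control and 76.8 (65.3 to 89.7) against 252 CPM (247 to 258) in sonKD. The keratins Krt8 and Krt18 had -0.44 and -0.39 in control and -0.86 and -0.61 in sonKD, and Anxa2, a membrane-binding annexin, 1.18 and 1.38. Gdf15, Krt8 and Krt18 were named after their values were seen. Near-empty droplets held S100a6 at 173 and 293 CPM, again above the cells. The part of free RNA in these lower values was not tested.

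The rest of the 10 lowest genes had no common list. Cryab, a small heat shock protein gene, had log2 ratios of -1.08 and -1.09. Rhox5, an X-linked homeobox gene, had -1.05 in control, at 10.2 against 21.1 CPM, and 3 UMIs in all high-scoring sonKD cells, a ratio of -3.72 (-6.00 to -2.16). Gja1 and Cdh4, a gap junction and a cadherin gene, had -0.91 and -0.90 in control and -1.04 and -1.30 in sonKD. Sfn, a scaffold protein gene, had -0.81 and -1.14. Baz1a, of a chromatin remodeller, had -0.81 and -0.86, and Mfsd1, a lysosomal transporter, -0.78 and -1.60. Rhox5 and Baz1a averaged under 10 CPM in the high-scoring cells. Both reached the level minimum only through the other cells and so had to be lower. Near-empty droplets held Rhox5 at 35.9 and 30.8 CPM and Cryab at 28.3 and 41.3 CPM, above either class of cells. For Gja1, Cdh4, Sfn, Baz1a and Mfsd1 the level there was below that of the other cells.

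**Figure D4:**
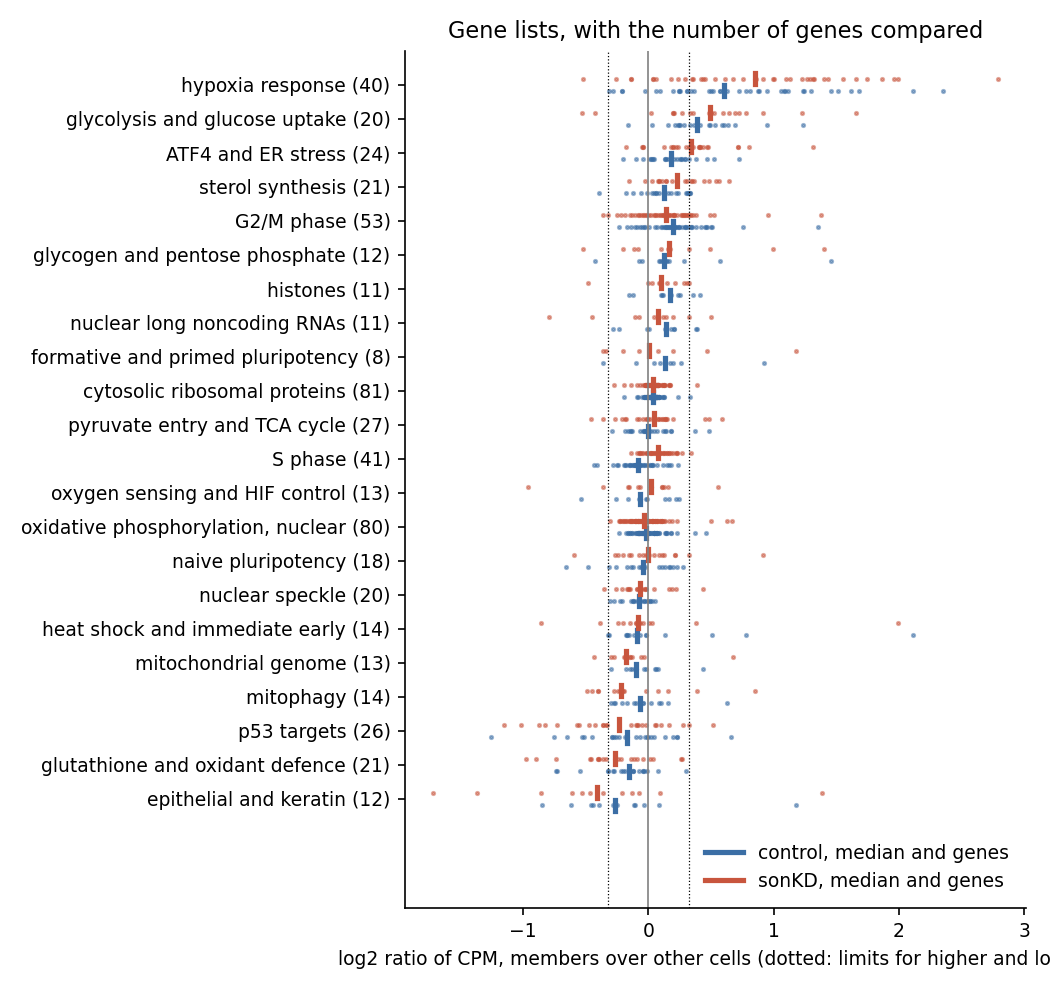
Each row is a gene list with at least 8 compared genes (number in parentheses). Points are the log2 ratios of CPM of its genes in high-scoring over other cells, thick bars the medians (control blue, sonKD red), and dotted lines the limits of 0.32 above and below 0. The hypoxia response list has the rightmost medians, 0.60 and 0.85, and the epithelial and keratin list the leftmost, -0.27 and -0.41. The hypoxia medians include 6 genes that reached the level minimum only through the high-scoring cells.

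The high-scoring cells were stem cells by their markers. Of 18 compared genes of the naive state, 0 were higher and 1 was lower, Nr0b1, an orphan receptor gene, at -0.66 and -0.59. Among all compared genes 4.49% were higher and 2.48% lower. Pou5f1 (Oct4) was at 1072 against 1108 CPM in control and 860 against 920 CPM in sonKD, and Nanog at 176 against 169 CPM and 159 against 153 CPM. Sox2 was at 425 against 342 CPM in control and 422 against 330 CPM in sonKD, log2 ratios of 0.31 and 0.35, of which the first is just under the limit for higher genes. Zfp42 (Rex1) had -0.14 and -0.08. Among 8 compared genes of the formative and primed state, Otx2, a transcription factor of that state, was higher, at 0.92 (0.57 to 1.26) and 1.18 (0.68 to 1.65), and Etv4 was lower. Otx2 reached the level minimum only through the high-scoring cells, from 9.83 and 8.94 CPM to 18.6 and 20.3 CPM. Markers of other cells were sparse: 1 of 9 trophectoderm, 1 of 13 mesoderm, 2 of 12 neuroectoderm, 4 of 16 primitive endoderm and 1 of 10 fibroblast genes reached 10 CPM. Their sums were 37.6 to 342 CPM in the high-scoring control cells for the first 4 of these lists and 25.7 CPM for fibroblast genes, against 41.5 to 399 and 24.1 CPM in the other control cells. Neuroectoderm sums were higher in the high-scoring cells, at 139 against 122 CPM in control and 131 against 105 CPM in sonKD. In sonKD trophectoderm had 44.9 against 43.1 CPM and fibroblast 29.0 against 20.5 CPM. Mesoderm had 24.1 against 33.4 CPM there and primitive endoderm 296 against 384 CPM. Of the compared genes of these lists only Ncam1, a neural adhesion molecule, was higher, at 0.43 and 0.48. The name hypoxia-like, glycolytic stem cells rests on the genes that chose the cells and on lists picked with earlier results known. It is a description and was not tested.

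Some genes of the stress and G2/M lists were higher. The shares to read these lists against are those of all compared genes, 4.49% higher and 2.48% lower. Of 24 compared genes of the ATF4 and endoplasmic reticulum stress list, 5 were higher and 0 lower, with medians of 0.18 and 0.34. Chac1, which degrades glutathione, was at 26.3 against 16 CPM in control and 29.0 against 11.7 CPM in sonKD. Shmt2, of mitochondrial serine use, had 0.46 and 0.71, but its gene overlaps that of Ndufa4l2 on the opposite strand, so reads of the overlap could count for either. Of 53 compared G2/M genes, 6 were higher and 0 lower, with medians of 0.19 and 0.14. G2e3, a ubiquitin ligase gene, was at 79.8 against 31.2 CPM in control and 69.5 against 26.8 CPM in sonKD, Kif23, a kinesin of cytokinesis, had 0.76 and 0.95, and Top2a 0.50 and 0.49. Of 41 compared S phase genes, 0 were higher and 0 lower.

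The hypoxia, glycolysis and glutathione lists ran in 1 direction over the bins of the score, and the p53 list in control did not. Cells were placed in 6 bins: a score of 0, 3 bins up to the 90th percentile, and the lower and upper part of the high-scoring cells. The hypoxia response list, which leaves out the 6 score genes, ran from 3461 CPM at a score of 0 through 3502, 3641, 4097 and 4641 to 5142 CPM in control. In sonKD it ran from 3482 through 3630, 3839, 4358 and 5352 to 5671 CPM. Glycolysis genes that are not in the hypoxia list ran from 7646 to 10931 CPM in control and from 7140 to 10561 CPM in sonKD, higher at each step. The glutathione and oxidant list ran the other way, from 5961 to 5167 CPM and from 6436 to 5261 CPM, lower at each step. Epithelial genes went from 1383 to 1145 CPM in control, with 1202 CPM in the fifth bin against 1194 CPM in the fourth, and from 1780 to 1258 CPM in sonKD. The p53 list in control was at 2626 CPM at a score of 0 and between 2047 and 2212 CPM in the other bins, with 2159 CPM in the upper part of the high-scoring cells against 2150 CPM in the second bin. In sonKD it ran from 2830 to 2130 CPM, lower at each step. Cells with a score of 0 were also shallower, with a median of 6708 UMIs in control and 9854 in sonKD, and the part of depth in these trends was not tested.

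**Figure D5:**
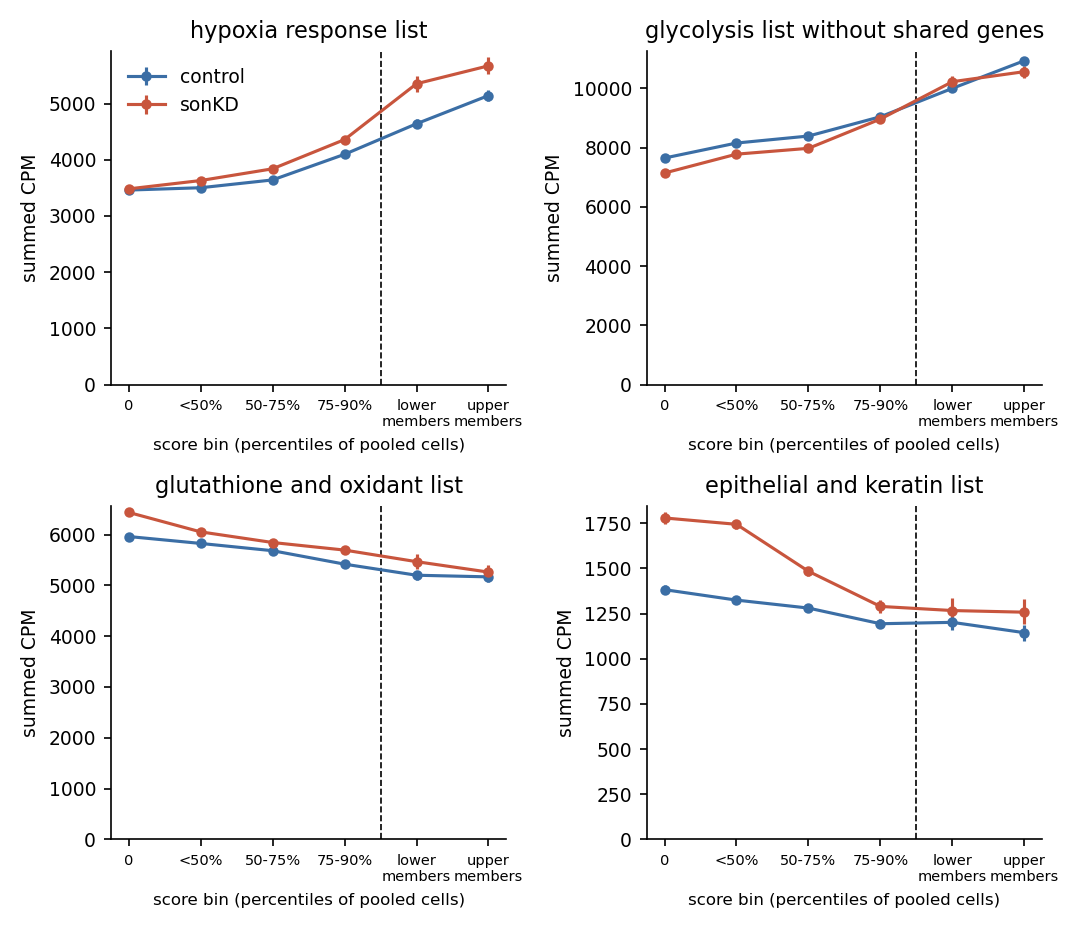
Each panel gives the summed CPM of a gene list (axis from 0) in 6 bins of the score, with control in blue, sonKD in red and 95% counting intervals as bars, and the dashed line marks the cut. The hypoxia list runs upward from 3461 to 5142 CPM in control and from 3482 to 5671 CPM in sonKD, and the glutathione and oxidant list downward.

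Between the libraries the same cells were compared class by class, which with 1 library per group describes these libraries and not the knockdown. Son was at 171 CPM (160 to 184) in high-scoring control cells and 119 CPM (105 to 135) in high-scoring sonKD cells, and at 168 (164 to 172) and 105 CPM (101 to 108) in the other cells. The log2 ratio of sonKD over control was -0.52 (-0.74 to -0.32) in the high-scoring cells and -0.68 (-0.75 to -0.62) in the others, intervals that overlap. The targeted RNA was thus lower in the sonKD library in both classes. Slc2a1 had -0.09 (-0.22 to 0.03) in the high-scoring cells and -0.37 (-0.42 to -0.32) in the others. Vegfa had 0.15 (-0.29 to 0.57) and -0.54 (-0.76 to -0.33). S100a6 had 0.36 (0.07 to 0.65) in the high-scoring cells against 1.23 (1.18 to 1.29) in the others. Neat1, the long noncoding RNA of paraspeckles, was at 75.4 and 133 CPM in the high-scoring cells and at 88.8 and 230 CPM in the others, log2 ratios of 0.82 (0.58 to 1.05) and 1.37 (1.31 to 1.43). For all 4 of these genes the intervals of the 2 classes did not meet. They were picked from the named genes, and the intervals overlapped for others, such as Ldha, Pou5f1, Malat1, Hif1a and Cdkn1a. High-scoring cells of both libraries had to pass the same cut, and the part of that choice in these values was not tested. The difference between the classes has no replicate check.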

How the data were processed

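Single-cell RNA of 2 libraries was counted. The values deposited are raw UMI counts for all barcodes, made with Cell Ranger 7.1.0 on the mm10 build, per the submitters' processing notes. The annotation and the treatment of introns and strand are not given in the sources used here. Here, barcodes needed at least 2500 UMIs, 1000 genes and at most 10% mitochondrial UMIs, which left 4978 of 5603 control and 2731 of 3787 sonKD barcodes. The score, the cut and the limit of 10 CPM are given with the results, and the members, gene lists and limits were chosen with earlier results of these data known. UMIs were summed over each class of cells in each library and scaled to CPM, log2 ratios were taken without a pseudocount, with 3 as the lowest count used. The 95% intervals are exact: Poisson for CPM, Clopper-Pearson for shares, conditional binomial for ratios. That of a share difference joins the bounds of both shares. All cover counting error only. No test was made, since each group has 1 library and its cells are no replicates. The ratio script was tested on simulated data.

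Genes named are the 6 score genes, the 10 highest and 10 lowest by the smaller ratio of the libraries, the 3 farthest of each list, and Hif1a, Vhl, Egln2, Slc2a1, Slc2a3, Pgk1, Ldha, Pdk1, Vegfa, Bnip3l, Eno1, Aldoa, Tpi1, Gapdh, Pou5f1, Sox2, Nanog, Zfp42, Son, Malat1, Neat1 and Cdkn1a; any others were chosen after their values were seen. Scrublet (scanpy 1.11.5) called 0.0603% of control and 0.0366% of sonKD cells doublets, under the 0.5% of a working call, so none were removed. An alternative removed the 3.98% and 2.20% with the highest scores. Positions are from GENCODE M21 (GRCm38), which holds 32158 of 32285 gene identifiers, and promoters from RefSeq (GRCm38.p6).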

Additional observations from a re-analysis of the deposited data

How the results depend on the processing

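No paired analysis was possible because each group holds 1 library and no test was made. Alternatives covered the score, the cut, cell limits, doublets, depth weighting, splitting of UMIs, scaling and the gene filter, and the cause of each move was not tested. The share of cells that are members, as a difference of sonKD minus control of -5.17 points in the description, was -2.79 points with cells scored at 2500 UMIs, -2.69 with the top 5% and -7.50 with the top 20%, and it was below 0 in the 7 alternatives that give a share. Choosing the top 10% within each library fixes both shares and gives none. Of genes higher in members in both libraries (363), there were 157 with cells scored at 2500 UMIs, 83 at a minimum of 50 CPM, 1132 with no filter on genes and 99 at 1.5-fold. Of genes lower in members in both libraries (201), there were 87, 53, 477 and 34 in that order, and 124 with the top 20%. Scoring at 2500 UMIs shared 127 of the 363 and 55 of the 201, and choosing cells on a random part of their UMIs and measuring the remaining shared 201 and 80. With cells scored at 2500 UMIs the median of the hypoxia response list, control, was 0.391 and that of the hypoxia response list, sonKD, 0.460, and the latter was 0.437 at 50 CPM. On split UMIs these medians were 0.545 and 0.666. A limit of 10 CPM in the other cells, chosen after seeing the data, gave 300 higher and 234 lower genes. The glycolysis and glucose uptake list, control, had 0.279 and the glycolysis and glucose uptake list, sonKD, 0.244 at 2500 UMIs, and 0.307 and 0.336 with the top 20%. A further 11 list medians moved with the same sign, 9 of them those of the mitochondrial genome list and 1 each of the core pluripotency and nuclear long noncoding RNA lists. Under the remaining alternatives 27 values of counts and shares and 939 list medians were close to those described, as were 2385 values of named genes, while 260 values of named genes moved further with the same sign.

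Signs reversed for few named genes, of which Pdk3 in sonKD is the one called higher above. At 2500 UMIs they were Pold3 in control at -0.045, Tsix in control at 0.00134, Lamc1 in sonKD at 0.13, Malat1 in sonKD at -0.072, Cdkn1a in sonKD at -0.35 and the cytosolic ribosomal proteins list, sonKD, at -0.00137. On split UMIs they were Arnt in control at -0.14, Pdk3 in sonKD at -0.00173, Pou5f1 in sonKD at 0.018, Tsix in control at 0.059, Tead4 in sonKD at 0.39, Tubb3 in sonKD at -0.24, Hist1h2bc in sonKD at -0.54, Hif1a in sonKD at 0.25, and Egln2 at 0.22 in control and 0.13 in sonKD. Son in control was at -0.11 with the top 5%, Rpl39l in sonKD at -0.43 with at most 5% mitochondrial UMIs, and, as a mean per cell, Lamc1 in sonKD at 0.18 and Malat1 in sonKD at -0.021. The median counting interval of a single gene was 0.45 wide in control, with 589 high-scoring cells, and 0.70 in sonKD, with 182.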

Other observations

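Other gene lists held between 0 and 2 genes called higher or lower each. With 4.49% of all compared genes higher and 2.48% lower, such counts are given for the genes and not for the lists. Of 21 compared sterol synthesis genes, 0 were higher and 0 lower, 15 had values above 0 in both libraries against 34.3% of all compared genes, and Insig1, which holds back sterol production, had log2 ratios of 0.32 and 0.56. Of 20 compared nuclear speckle genes, Son among them, 0 were higher and 0 lower, 14 had values below 0 in both libraries against 33.6% of all, and the splicing-linked genes Bclaf1 and Acin1 had -0.23 and -0.28 in control and -0.25 and -0.21 in sonKD. Of 14 compared heat shock and immediate early genes, 2 were higher, Ier3 among them, and 0 lower. Hspb1, a small heat shock protein gene, had -0.32 and -0.39. Of 81 compared cytosolic ribosomal protein genes, 1 was higher, with medians of 0.04 in both libraries. Of 11 compared histone genes and 11 nuclear long noncoding RNAs, 0 and 1 were higher and 0 and 0 lower. Of the 2C-like genes, 0 of 11 were compared, because none reached the level minimum.

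The genes beside the 6 score genes did not share their ratios as a rule. Of 15 compared genes within 100 kb of 1 of the 6, 3 were higher: Lrp1 at 0.76 in both libraries, Shmt2, which overlaps Ndufa4l2, and Spag5, which starts or ends 511 bases from Aldoc, at 0.46 and 0.49. Lrp1, a receptor of the LDL receptor family that binds A2m, lies 21007 bases from Ndufa4l2. These genes were looked at after the values of the score genes were known.

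Barcodes with over 10% mitochondrial UMIs were left out above and numbered 625 in control and 1056 in sonKD. The 6 genes summed to 183 CPM in them in control and 148 CPM in sonKD, below the 255 and 206 CPM of all cells used. Near-empty droplets held 129 and 102 CPM. The other cells, from which the high-scoring cells were taken out, held 179 and 163 CPM. Of these barcodes 8.48% (6.42 to 10.9) in control and 6.72% (5.29 to 8.41) in sonKD lay past the cut, at median depths of 2973 and 3140.5 UMIs.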
